A study of Mus musculus with 8 samples.

Results

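The remote zone of infarcted TIGAR knockout (TKO) hearts was set against TKO left ventricle, 1 RNA-seq library a side, so the comparison used 2 of the 8 libraries of the series. All 12999 genes whose mean over the 8 libraries reached 1 CPM, the usual depth-scaled unit of read counts, of 16994 in the count table, were described. The remote zone is ventricular muscle away from the scar that forms after the left anterior descending coronary artery is tied off. TKO mice lack *Tigar*, which encodes an enzyme that lowers fructose-2,6-bisphosphate and thereby slows glycolysis. The knockout was present in the whole body. How its allele was made is not given in the sources used here. Infarcted mice of the study were male and 16 weeks old at ligation. Their hearts were imaged at 4 weeks, and the day on which the zones were taken is not given in the sources used here. The left ventricle libraries carry only the tissue and the genotype in their labels: whether those hearts were sham operated, the hour of collection, and the number of mice behind each library of these regions are not given in the sources used here. Libraries of the same regions from wild-type (WT) hearts, again 1 each, shared no library with the TKO pair and are given side by side. The TKO border zone is given as well, but its ratio used the same TKO left ventricle library, so it is not an independent measurement.

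After infarction the surviving muscle takes over the work of the lost wall. Its myocytes enlarge, fetal and wall stress genes such as natriuretic peptides can return, fuel use can move from fatty acids toward glucose, and fibroblasts between the myocytes lay down matrix. Resident and recruited macrophages clear debris and shape that matrix. The heart also keeps a circadian clock, a loop in which BMAL1 (encoded by *Arntl*) with CLOCK or NPAS2 drives *Per*, *Cry* and *Nr1d* genes whose products then repress the loop.

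Totals ran from 27429240 to 33799249 estimated counts over the 8 libraries, with 29894294 in the TKO left ventricle and 33799249 in the TKO remote zone. At these totals the floor of 3 counts corresponded to 0.116 CPM and 0.0996 CPM after scaling. The muscle label held in both libraries: the 6 markers fixed for it (*Myh6*, *Myl2*, *Myl3*, *Tnni3*, *Tnnt2* and *Actc1*) lay between 3326 CPM (*Tnni3*, remote zone) and 8742 CPM (*Actc1*, left ventricle). *Tigar* (ENSMUSG00000038028, chromosome 6 of GRCm38, 127085116 to 127109557) had 51 counts in the TKO left ventricle and 87 in the TKO remote zone, against 1965 and 1997 in the WT libraries. Transcripts encoded by mitochondrial DNA took 36.6% of the counts in the TKO left ventricle and 38.6% in the TKO remote zone. No region has a replicate, so there is no test and no p-value anywhere below. Each ratio carries a 95% interval from the exact binomial method, which reflects counting error alone and not the spread between mice.

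Most genes were close to equal in the 2 libraries. After a prior count of 2, 11350 genes (87.3%) lay within 1.5-fold and the median fold was 0.988, with 47.4% of genes above 1. At least 2-fold higher in the remote zone were 404 genes, 3.11% of those tested, and at least 2-fold lower were 199, or 1.53%. The WT pair had 444 genes (3.42%) higher and 272 (2.09%) lower. Of the TKO counts, 178 of the higher and 106 of the lower genes had 100 or more counts in the higher library. The genes past the limit overlapped in part between the genotypes. Higher in both were 92, which is 22.8% of the TKO list and 20.7% of the WT list. Lower in both were 27, or 13.6% and 9.93%. Over all genes, 3.42% were past the limit higher in WT and 2.09% lower. Of the TKO higher genes 67.3% were above 1 in WT, beside 52.4% of all genes. Of the TKO lower genes 45.2% were below 1 in WT, beside 6180 of all 12999 genes. Across all 12999 genes the log2 folds of the TKO and WT pairs had a Pearson r of 0.143, a description over genes that share their libraries.

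The counts differed with the left ventricle library used as the reference. Set against the WT left ventricle, the TKO remote zone had 227 genes higher and 280 lower. Against both left ventricle libraries it had 65 higher (0.5% of genes) and 64 lower (0.492%). Values against both are given for many of the groups below. Over all genes tested, the TKO left ventricle was the lowest of the 8 libraries for 21.5% and the highest for 22.8%. That second reference differs in genotype, and it held more adipocyte RNA: the fat hormone gene *Adipoq* had 13.5 CPM there and 0.232 CPM in the TKO left ventricle.

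**Figure D1:**
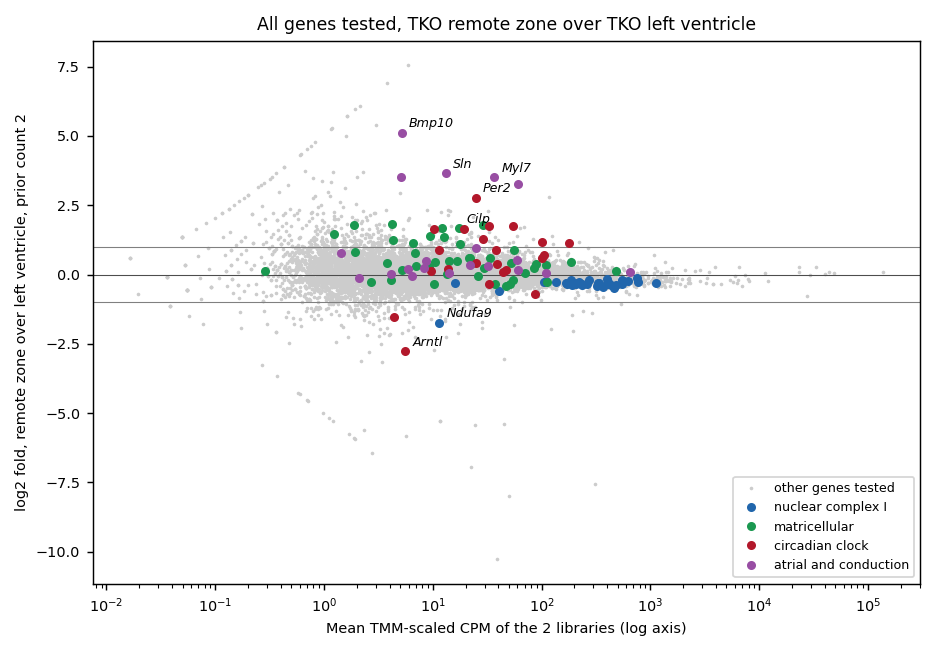
Each point is 1 of the 12999 genes tested, with the mean TMM-scaled CPM of the TKO remote zone and TKO left ventricle on a log x axis and the log2 fold after a prior count of 2 on the y axis; lines mark 2-fold. Atrial genes such as *Bmp10* and *Sln* and the clock gene *Per2* stand above the limit, *Arntl* stands below it, and the nuclear complex I genes other than *Ndufa9* lie in a narrow band just under 0.

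Fibroblast products of the matrix were higher in the TKO remote zone, although the main collagens were not. Of 44 activated fibroblast and matricellular genes, 35 were above 1, 11 were at least 2-fold higher and none was 2-fold lower, with a median of 1.34 against 0.988 over all genes. The percentages past the limit over all genes were 3.11 and 1.53. The same list had 25 genes past 2-fold and a median of 2.14 in the WT pair, and a median of 1.95 in the TKO border zone. Against the WT left ventricle the TKO median was 1.29 and 9 genes were past 2-fold, 8 of them past it against both references. More cells of a type and more RNA per cell cannot be told apart in these tissue pieces.

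*Cilp* (cartilage intermediate layer protein, ENSMUSG00000042254, chromosome 9, 65265180 to 65280605), a matrix protein known from scarred hearts, had 8.34 CPM in the TKO left ventricle and 26.6 CPM in the TKO remote zone, with 13.8 and 69.4 CPM in the WT libraries. It was thus 3.19-fold higher in the TKO remote zone (2.74 to 3.72) and 5.02-fold higher in WT. *Dkk3*, which encodes a secreted protein of the Dickkopf family, had 13.1 and 45.3 CPM in the TKO libraries (3.45-fold, 3.06 to 3.90) and 10.1 and 103 CPM in the WT libraries. For both genes the remote zone of either genotype stood above both left ventricle libraries. *Fmod*, a small leucine-rich proteoglycan that binds collagen fibrils, had 151 and 559 counts in the TKO left ventricle and remote zone, a ratio of 3.18 (2.66 to 3.84). *Chad*, another leucine-rich matrix protein, had 47 and 199 counts (3.64, 2.64 to 5.12), and *Comp*, which binds collagen and other matrix proteins, 293 and 734 (2.15, 1.88 to 2.48). *Ltbp2* (a protein of elastic microfibrils, ENSMUSG00000002020, chromosome 12, 84783212 to 84876532) had 5.13 and 13.7 CPM, a ratio of 2.67 (2.19 to 3.27).

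Signaling members of the list were among the higher genes as well. *Ccn5*, a CCN family member, had a TKO ratio of 2.58 (2.17 to 3.06) and *Sfrp2*, which binds Wnt ligands, a ratio of 2.25 (1.79 to 2.84), and both were higher than either left ventricle library by a similar size (2.54 and 2.25 against WT). *Postn* (periostin) had 39.0 CPM in the TKO left ventricle and 72.1 CPM in the TKO remote zone, 1.85-fold higher, and was 1.496-fold above the WT left ventricle. At the other end of the list, the growth factor gene *Ccn2* had 122.6 and 102 CPM (ratio 0.833, 0.792 to 0.876), whereas its WT ratio was 1.91. *Fn1* (fibronectin) had 53.6 and 40.2 CPM (0.751, 0.695 to 0.812), the lowest ratio of the list. The myofibroblast gene *Cthrc1* had 7 and 9 counts, a difference not detectable at this depth.

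Of 26 fibrillar and fibril-associated collagen genes, 2 were at least 2-fold higher and 1 was lower, with a median of 1.101 (1.175 against the WT left ventricle). The WT pair had 9 higher and a median of 1.41. The chains of type I collagen were near equal in the TKO libraries: *Col1a1* had 77.8 CPM in the left ventricle and 76.9 CPM in the remote zone (0.989) and *Col1a2* 110 and 124 CPM (1.12, 1.07 to 1.18). *Col3a1* had 173 and 158 CPM in TKO (0.914, 0.877 to 0.952) and 129 and 312 CPM in WT (2.43). The higher collagens were of low abundance. *Col12a1*, a fibril-associated collagen, had 41 and 169 counts (3.55, 2.51 to 5.12) and *Col28a1* 12 and 51 (3.66, 1.92 to 7.53). *Col5a3* was the lower one, with 34.2 and 15.2 CPM (0.443, 0.395 to 0.496). It had 15.4 CPM in the WT left ventricle, so its TKO remote zone value was near equal to that library.

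**Figure D2:**
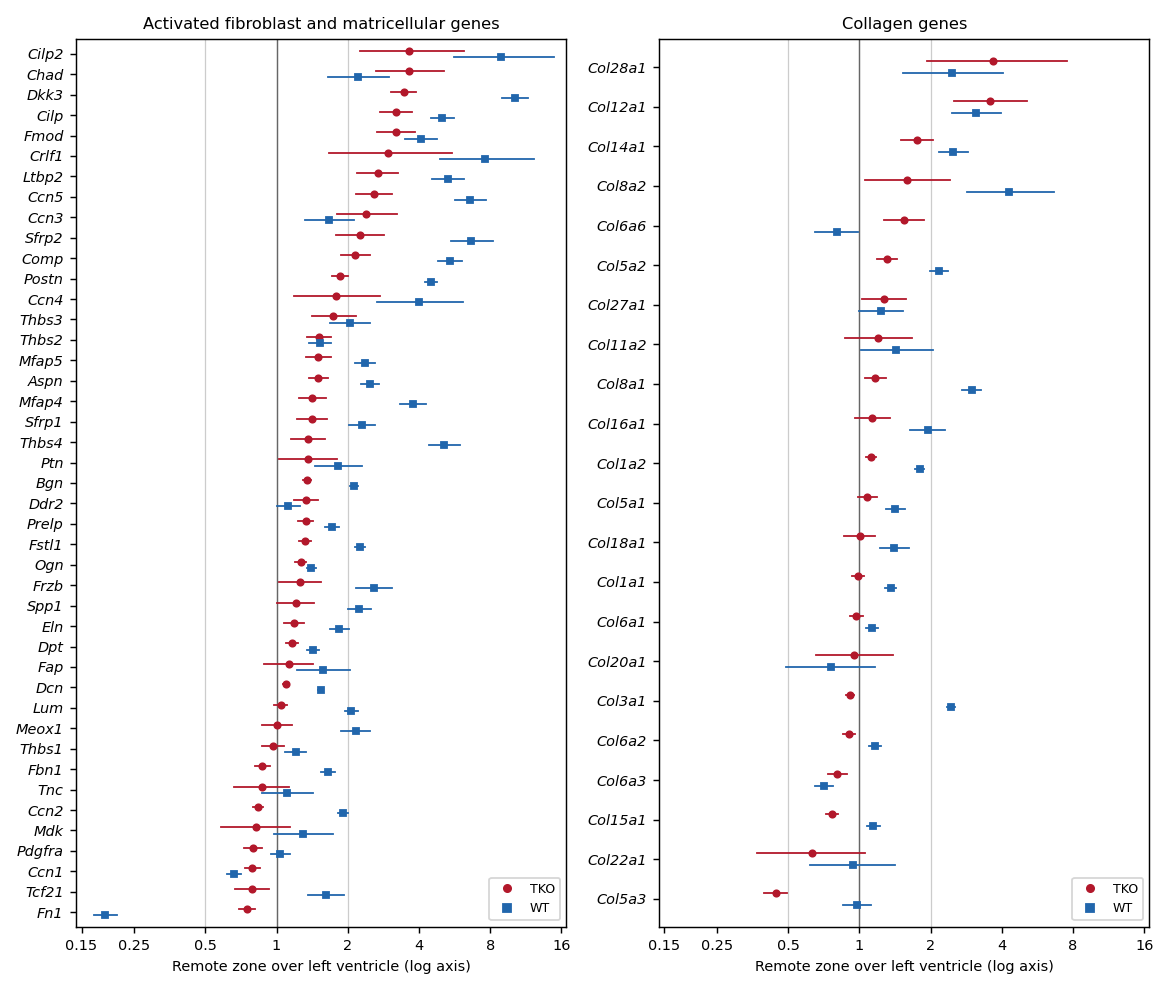
Ratio of remote zone over left ventricle (log x axis) for each activated fibroblast, matricellular and collagen gene with at least 50 counts over each pair, with TKO as red circles and WT as blue squares and bars for 95% counting intervals; grey lines mark 2-fold. Most matricellular genes lie to the right of 1 in both genotypes and farther right in WT, while TKO *Col1a1* and *Col3a1* lie near 1.

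Among 38 matrix crosslinking and protease genes, 4 were at least 2-fold higher and 1 lower, with a median of 1.03. *Timp3*, an inhibitor of metalloproteinases, had 135 CPM in the TKO left ventricle and 308 CPM in the remote zone (2.28, 2.19 to 2.37), but the WT left ventricle had 296 CPM and the ratio to it was 1.04. *Adamts1*, a secreted protease, had a like pattern, with 23.5 and 56.2 CPM in TKO and 44.4 CPM in the WT left ventricle. *Lox*, the enzyme that crosslinks collagen, had 95 and 167 counts (1.51, 1.17 to 1.97), and its 10.5 CPM in the WT left ventricle was above the 5.55 CPM of the TKO remote zone. *Mmp9* was lower, with 41 and 22 counts (0.462, 0.262 to 0.793), and *Mmp19* higher, with 18 and 78 (3.73, 2.21 to 6.62). None of the genes higher against the TKO left ventricle in this list was also 2-fold higher against WT left ventricle. Basement membrane genes had a median of 1.20 over 21 genes. *Col4a1*, the main basement membrane collagen, had 382 and 254 CPM (0.665, 0.645 to 0.685), and *Lama3*, a laminin chain, only 6 and 62 counts (8.89, 3.86 to 25.1).

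Atrial muscle genes had large ratios. Of 20 atrial and conduction genes tested, 18 were above 1 and 5 were past 2-fold, none lower, with a median of 1.26. *Bmp10* (a growth factor of atrial myocytes, ENSMUSG00000030046, chromosome 6, 87428994 to 87437677) had 6 counts in the TKO left ventricle and 305 in the TKO remote zone, 43.7-fold (19.9 to 120), with 6 and 2134 counts in the WT libraries. *Myl7*, the atrial regulatory light chain of myosin (ENSMUSG00000020469, chromosome 11, 5896637 to 5898782), had 5.87 and 67.5 CPM (11.49-fold, 9.74 to 13.6), and *Myl4*, the atrial essential light chain, 11.54 and 110 CPM (9.57-fold, 8.50 to 10.8). *Sln* (sarcolipin, an inhibitor of the calcium pump in atria) had 49 and 735 counts (12.9, 9.66 to 17.6) and *Mybphl* 20 and 285 (12.3, 7.79 to 20.4).

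These 5 genes were past 2-fold against both left ventricle libraries. They stood even higher in the WT remote zone, where *Myl7* had 172 CPM and *Sln* 80.9 CPM. In the TKO border zone they lay near the left ventricle, with ratios between 1.18 (*Myl4*) and 1.73 (*Sln*). Other members of the list ranged from near equal to just short of the limit. *Chrm2*, the muscarinic receptor of the heart, had 107 and 111 CPM and *Kcnj5* 57.6 and 63.8 CPM. The potassium channel gene *Kcna5* had 16.99 and 33.3 CPM (1.96, 1.75 to 2.198), *Kcnj3* 48.4 and 69.8 CPM (1.44) and the pacemaker channel gene *Hcn4* 7.30 and 10.2 CPM (1.397). The summed level of the atrial and conduction list was 983.5 CPM in the TKO left ventricle and 1286 CPM in the TKO remote zone, and *Cacna1d* was its only gene at 0, in the left ventricle. Whether atrial tissue was in the remote zone pieces was not tested.

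**Figure D3:**
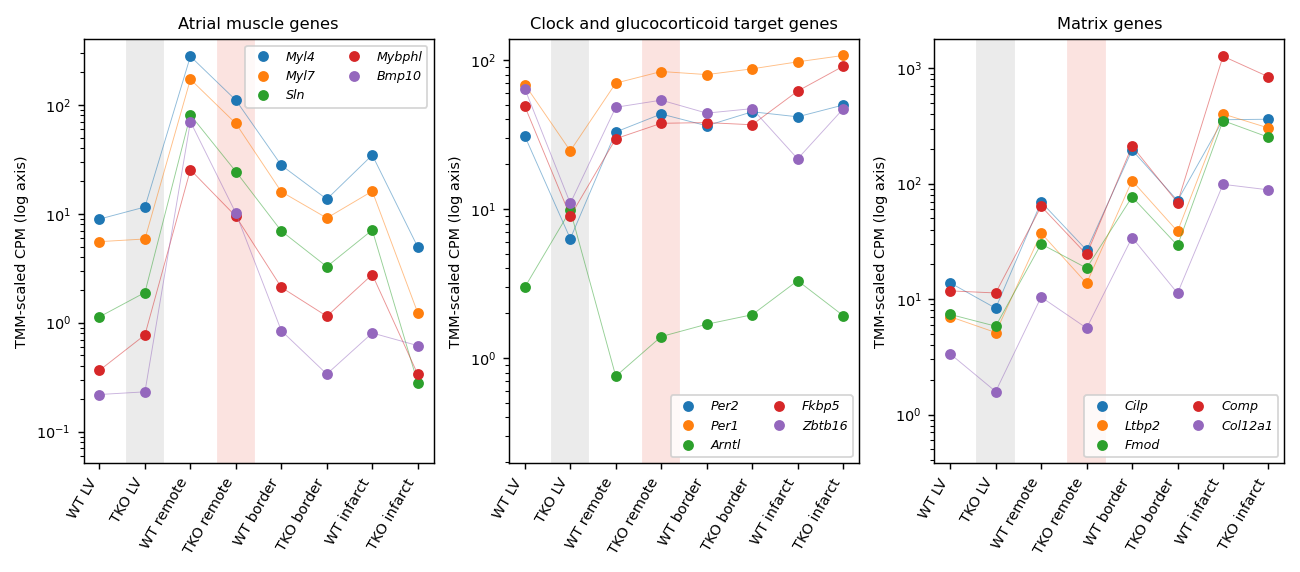
TMM-scaled CPM (log y axis) of 5 atrial genes, 5 clock and glucocorticoid target genes, and 5 matrix genes in each of the 8 libraries, with the TKO left ventricle shaded grey and the TKO remote zone shaded red; thin lines only join points of a gene. The atrial genes peak in the 2 remote zones, *Per2*, *Per1*, *Fkbp5* and *Zbtb16* are lowest in the TKO left ventricle where *Arntl* is highest, and the matrix genes are lowest in the left ventricles and higher in the border and infarct zones.

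Genes of wall stress and the fetal program lay on both sides of 1 in TKO muscle. The 23 genes had a median of 1.09, with 1 past 2-fold, against a median of 1.15 and 6 past 2-fold in WT. *Nppa* (atrial natriuretic peptide, ENSMUSG00000041616, chromosome 4, 148000722 to 148002079) had 280 CPM in the TKO left ventricle and 489 CPM in the TKO remote zone (1.75, 1.70 to 1.80), and 173 and 1962 CPM in the WT libraries. Atrial muscle genes such as *Bmp10* were also higher in both remote zones and more so in WT. Whether atrial tissue contributed to the *Nppa* values was not tested. *Nppb* (brain natriuretic peptide) had 398 and 237 CPM in TKO (0.596, 0.579 to 0.615) and 103 and 338 CPM in WT. *Acta1*, skeletal actin, had 470 and 264 CPM in TKO (0.563, 0.547 to 0.579) and 130 and 414 CPM in WT. Of the TKO pair the left ventricle had the higher level of *Nppb* and *Acta1*, and the TKO remote zone stood 2.29-fold and 2.03-fold above the WT left ventricle for them. *Myh7*, the slow myosin heavy chain, had 399 and 434 CPM (1.09, 1.06 to 1.12) and *Ankrd1*, a stretch-responsive gene, 59.0 and 59.95 CPM (1.02, 0.949 to 1.09). The smooth muscle gene *Cnn1* was the 1 gene past 2-fold, on 26 and 75 counts.

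The contractile apparatus was slightly lower. Of 27 core sarcomere genes, 20 were below 1, with a median of 0.860 and 1 past 2-fold higher, and the WT median was 0.873. The TKO remote zone had a median of 0.9202 against the WT left ventricle. The genes with the largest loss in CPM beside *COX2* were the oxygen store *Mb* (ratio 0.846), the ventricular light chains *Myl2* (7968 and 6051 CPM, 0.759) and *Myl3* (0.807), *Actc1* (0.860) and *Tnnt2* (0.787). *Myh6*, the adult myosin heavy chain, went the other way, with 5944 CPM in the left ventricle and 7150 CPM in the remote zone (1.20), while in WT it had 8921 and 5274 CPM. The giant protein gene *Neb* was the gene past 2-fold, on 74 and 209 counts (2.43, 1.85 to 3.21). Among 26 calcium cycling genes the median was 0.968, with 2 higher and 1 lower, and 1 of the higher was *Itpr1*, taken up with the genes at 0 counts. The other was *Fkbp1b*, with a fold of 2.51 after the prior count, 2.75 in WT and 2.64 against the WT left ventricle. The calcium pump *Atp2a2* had 11080 and 11540 CPM (1.04), its inhibitor *Pln* 6068 and 5833 CPM (0.961), and the release channel *Ryr2* 631 and 791 CPM (1.25, 1.23 to 1.28). *Cacna1h*, a T-type calcium channel, was lower at 169 and 93 counts (0.473, 0.363 to 0.613) and was also lower than in the WT left ventricle (0.321).

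Electrical genes showed a few differences on either side. Over 41 potassium, sodium and pacemaker channel genes the median was 1.105 with 2 higher and 1 lower (1.081 against the WT left ventricle). The transient outward current genes *Kcnd2* (1.001) and *Kcnip2* (0.9998) were equal. *Scn4b*, a sodium channel beta subunit, had 89.1 and 44.4 CPM (0.499, 0.466 to 0.534). No intercalated disc gene of 19 was past 2-fold. *Gja1* (connexin 43, the main ventricular gap junction protein, ENSMUSG00000050953, chromosome 10, 56377330 to 56402513) had 422 and 232 CPM (0.550, 0.534 to 0.567), but the WT libraries had 145 and 274 CPM, so the TKO remote zone stood between them. Of 23 cardiac transcription factors none was past 2-fold, with a median of 0.969 (1.103 against the WT left ventricle). The lowest was *Irx5*, with 417 and 268 counts (0.553, 0.472 to 0.646). *Gata4* was at 0.804, and *Tbx2* was the highest at 1.31. Receptors of the adrenergic, renin-angiotensin and natriuretic systems had a median of 0.999 over 24 genes. *Ace*, angiotensin converting enzyme, was the highest, with 44.6 and 79.4 CPM (1.78, 1.66 to 1.91) and a WT ratio of 1.60.

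**Figure D4:**
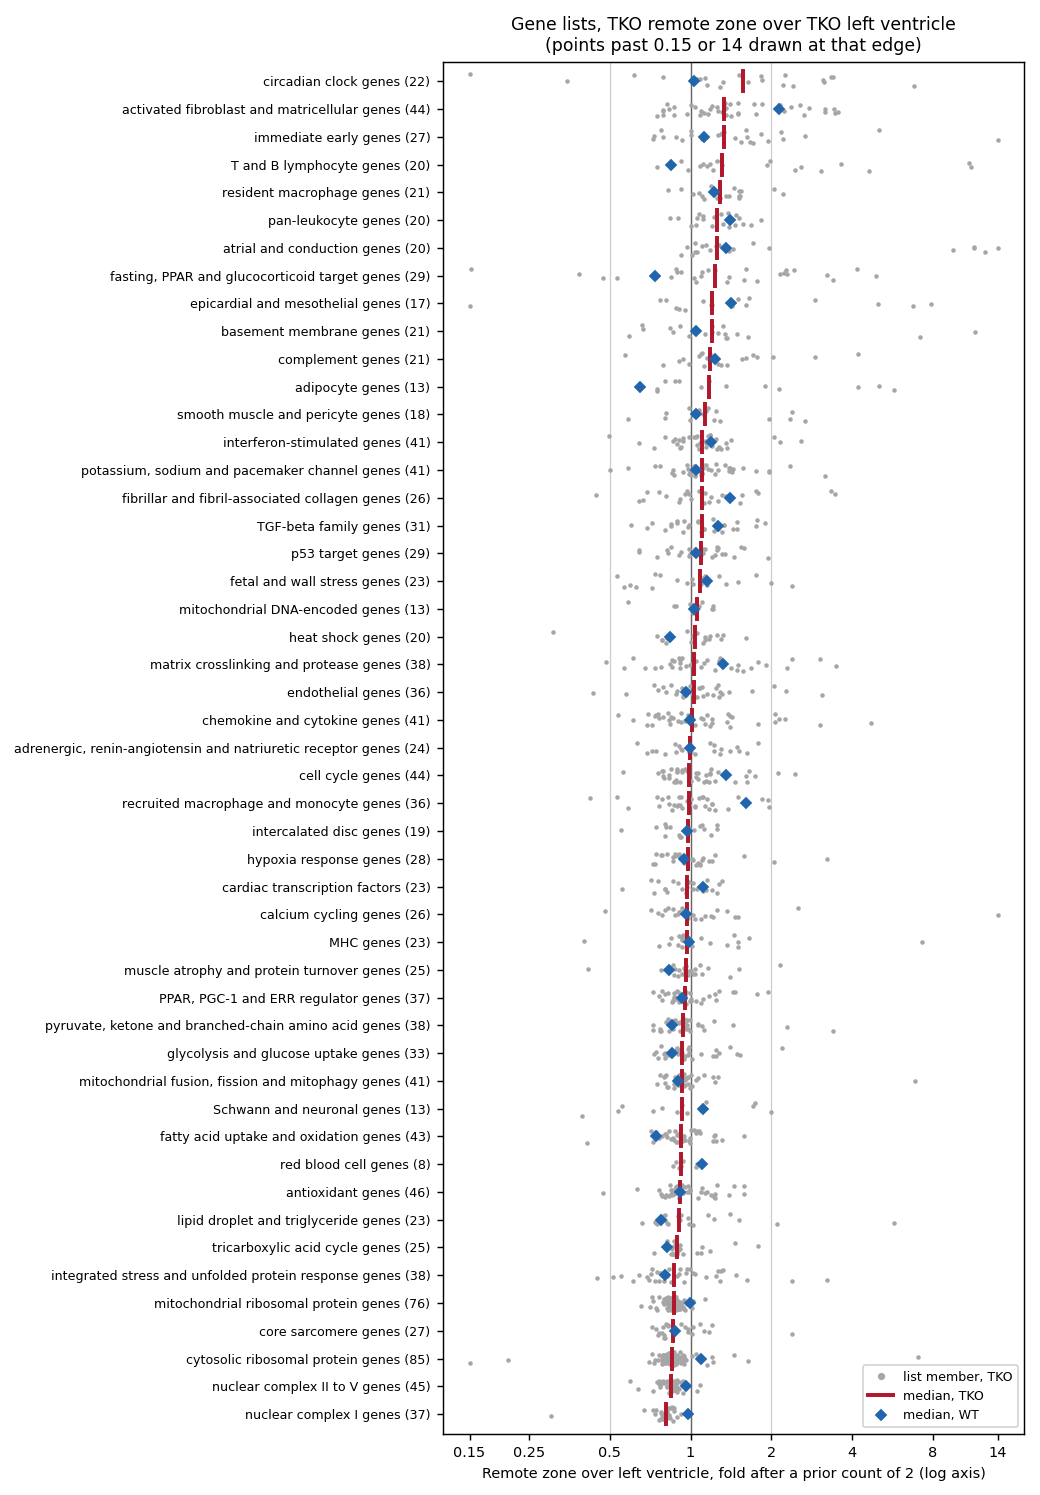
Fold of remote zone over left ventricle after a prior count of 2 (log x axis) for each gene list, with the number of genes tested in brackets. The list of the disrupted gene and its neighbours in the study is not drawn. Grey points are genes in TKO, red bars the TKO median, and blue diamonds the WT median. Grey lines mark 2-fold, and points past 0.15 or 14 are drawn at that edge. The clock list has the highest TKO median (1.57) with the WT median near 1, and the nuclear respiratory and ribosomal lists are among the lowest and tightest groups.

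Nuclear genes of the respiratory chain were lower by a small and even amount. All 37 complex I genes tested were below 1, with a median of 0.807 and quartiles of 0.782 and 0.833, and 43 of 45 genes of complexes II to V were below 1 with a median of 0.847. By contrast the 13 mitochondrial DNA-encoded genes had a median of 1.06, with 9 above 1. *Atp5b*, the beta subunit of ATP synthase, had 5786 CPM in the TKO left ventricle and 4998 CPM in the TKO remote zone (0.864, 0.858 to 0.870). The WT medians were 0.976 and 0.965. The TKO left ventricle was the highest of the 8 libraries for 36 of the 37 complex I genes and 39 of the 45 others, beside 22.8% of all genes, and against the WT left ventricle the TKO remote zone medians were 0.931 and 0.965.

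*Ndufa9* was the only complex I gene past 2-fold lower, with 458 and 159 counts in the TKO left ventricle and remote zone (0.299, 0.248 to 0.358). The WT libraries had 1.31 and 3.19 CPM, so this gene was higher in both TKO libraries than in WT. Among the mitochondrial DNA-encoded genes *COX2* (cytochrome c oxidase subunit 2) had 34650 and 20330 CPM (0.587, 0.585 to 0.589), while *COX1* had 132700 and 141700 CPM (1.07). *COX1*, *ND1*, *ND5*, *COX3*, *ND2* and *CYTB* were the 6 genes with the largest gain in CPM, with ratios between 1.03 (*CYTB*) and 1.21 (*ND1*), and *COX2* had the largest loss. The 8 libraries spanned 10420 to 34650 CPM for *COX2*, with the TKO left ventricle the highest.

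The protein synthesis lists showed the same tight band. The median over 76 genes of the mitochondrial ribosome was 0.867 with 73 below 1, and that over 85 genes of the cytosolic ribosome was 0.856 with 77 below 1. In WT the medians were 0.9995 and 1.09. *Mrpl12* had 180 and 161 CPM (0.896) and *Rplp0* 718 and 617 CPM (0.858) in the TKO libraries. For 65 of the 76 mitochondrial ribosomal genes the TKO left ventricle was again the highest of 8 libraries. Against the WT left ventricle the medians were 0.990 and 0.948. Leaving mitochondrial transcripts out of the scaling turned no list median to the other side of 1.

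Fuel genes were modestly lower on the whole. The 43 fatty acid uptake and oxidation genes had a median of 0.923, with 31 below 1 and 1 past 2-fold lower, and the WT median was 0.747. The TKO remote zone had a median of 0.878 against the WT left ventricle. *Cpt1b*, which admits fatty acids to mitochondria, had 647 and 538 CPM (0.832, 0.814 to 0.850) and *Acadm*, the medium-chain dehydrogenase, 1484 and 1254 CPM (0.845). Tricarboxylic acid cycle genes had a median of 0.887 over 25, with *Cs* (citrate synthase) at 1215 and 1070 CPM. Glycolysis and glucose uptake genes had a median of 0.928 over 33: *Slc2a4*, the insulin-responsive glucose transporter, had a ratio of 0.942 and *Hk2* 0.954. *Pfkfb3*, which makes the fructose-2,6-bisphosphate that TIGAR degrades, was the 1 glycolysis gene past 2-fold, with 6.53 and 14.4 CPM (2.21, 1.85 to 2.66), and the WT left ventricle had 14.4 CPM. Among 38 pyruvate, ketone and branched-chain amino acid genes (median 0.938, with 2 higher and none lower), *Bcat1*, a branched-chain aminotransferase, was higher on 9 and 40 counts (3.82, 1.83 to 8.96). *Bdh1*, which oxidizes ketone bodies, had 182 and 132 CPM (0.722, 0.692 to 0.754) and *Bcat2* 133 and 102 CPM (0.769). Regulators were near equal, with *Ppargc1a* at 1.17 and *Esrra* at 0.895 in a list of 37 genes with a median of 0.953.

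Of 29 fasting, PPAR and glucocorticoid target genes, 3 were at least 2-fold lower against both left ventricle libraries. These 3 were lower in the WT pair as well. *Angptl4*, a secreted inhibitor of lipoprotein lipase (ENSMUSG00000002289, chromosome 17, 33773750 to 33781830), had 17.9 CPM in the TKO left ventricle and 2.66 CPM in the TKO remote zone (0.148, 0.116 to 0.188), with 28.6 and 3.48 CPM in WT. *Pdk4*, the kinase that blocks pyruvate dehydrogenase (ENSMUSG00000019577, chromosome 6, 5483351 to 5496309), had 420 and 161 CPM (0.383, 0.370 to 0.396), with 1312 and 162 CPM in WT. *Txnip*, an inhibitor of glucose uptake, had 728 and 344 CPM (0.473, 0.462 to 0.485), with 858 and 385 CPM in WT. Both left ventricle libraries stood above both remote zone libraries for these genes. *Ucp3*, a mitochondrial carrier, followed them with 73.6 and 39.0 CPM (0.530, 0.492 to 0.570) but was short of the limit in TKO.

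Most other genes of the fasting, PPAR and glucocorticoid list were above 1 in TKO. Of 29 genes, 20 were above 1 and 9 were at least 2-fold higher, with a median of 1.24. *Angptl4*, *Pdk4* and *Txnip* were the 3 that were 2-fold lower. In WT none was higher, 5 were lower, and the median was 0.737. The higher ones were mostly glucocorticoid targets, and 1 of them, *Per1*, is also a clock gene. *Zbtb16*, a transcription factor, had 10.9 CPM in the TKO left ventricle and 53.8 CPM in the TKO remote zone (4.93, 4.34 to 5.61). *Fkbp5*, a cochaperone of the glucocorticoid receptor (ENSMUSG00000024222, chromosome 17, 28399094 to 28517527), had 8.96 and 37.7 CPM (4.20, 3.65 to 4.86). *Ddit4*, an inhibitor of mTOR signaling, had 30.3 and 97.6 CPM (3.23, 2.98 to 3.49), and *Tsc22d3*, also called GILZ, 49.1 and 119 CPM (2.42, 2.27 to 2.58).

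Each of these 4 genes had its lowest level of the 8 libraries in the TKO left ventricle. The WT left ventricle had 64.2 CPM of *Zbtb16*, 48.9 CPM of *Fkbp5*, 103 CPM of *Ddit4* and 120 CPM of *Tsc22d3*, and the ratios of the TKO remote zone to that library were 0.839, 0.770, 0.948 and 0.990. No gene of the list was 2-fold higher against both references, and against the WT left ventricle its median was 0.774. The insulin signaling members *Pik3r1* (2.27) and *Irs2* (2.17), and the transcription factor *Cebpd* (2.24), showed the same pattern, with ratios to the WT left ventricle between 1.04 and 1.27.

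Circadian clock genes had the highest median of any list. Of 22 genes, 8 were at least 2-fold higher and 2 lower, with 18 above 1 and a median of 1.57, whereas in WT the median was 1.03 and only *Arntl* was past 2-fold. *Per2* (a repressor of the loop, ENSMUSG00000055866, chromosome 1, 91415982 to 91459324) had 164 counts in the TKO left ventricle and 1309 in the TKO remote zone, 6.87-fold higher (5.83 to 8.13). *Per1* had 24.6 and 83.8 CPM (3.41, 3.12 to 3.72), *Per3* 15.02 and 50.4 CPM (3.35) and *Ciart*, a repressor of BMAL1, 4.94 and 15.7 CPM (3.19, 2.62 to 3.90). The output transcription factors of the PAR bZIP family were higher too, *Hlf* 2.41-fold, *Dbp* 2.25-fold and *Tef* 2.203-fold, as was the cell cycle kinase *Wee1* at 3.14-fold.

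The activator arm had 2 genes past the limit on the lower side. *Arntl* (ENSMUSG00000055116, chromosome 7, 113207465 to 113314126) had 254 and 42 counts in the TKO left ventricle and remote zone (0.142, 0.1001 to 0.198), and its partner *Npas2* had 169 and 67 (0.341, 0.253 to 0.455). *Clock* had 330 and 441 counts (1.15, 0.994 to 1.33). *Nr1d1*, which represses *Arntl*, had 108 and 66.6 CPM (0.616, 0.581 to 0.653). *Nr1d2*, its relative, had 80.0 and 131 CPM (1.63).

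The TKO left ventricle was the lowest of the 8 for 12 of the 22 clock genes, beside 21.5% of all genes, and the highest for 2, *Arntl* and *Npas2* both at their maximum there. *Per2* had 30.9 CPM in the WT left ventricle, 32.9 CPM in the WT remote zone and 45.0 CPM in the TKO border zone, all near the 43.5 CPM of the TKO remote zone, while the TKO left ventricle had 6.33 CPM. Against the WT left ventricle the clock median was 1.21 and the only gene past 2-fold was *Arntl* (0.466). The hour at which each heart was taken is not given in the sources used here, so collection time and the zone cannot be told apart for these genes.

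Promoters of 4 of the 10 clock genes past 2-fold are shown, chosen because they hold an element through which the textbook loop acts. Of the other 6, *Tef* also held one, *Hlf*, *Dbp* and *Npas2* had a window with no match, and *Per2* and *Wee1* were not in the table. Motifs of 3 kinds were searched on both strands in RefSeq windows of 300 bases (250 before to 50 after a start, GRCm38.p6): the E-box CACGTG bound by BMAL1 and CLOCK, the D-box TTATGNAA bound by the PAR bZIP factors, and TAGGTCA, the core bound by ROR and REV-ERB receptors. Of the 22 genes 18 had a window. The E-box was found in 6 of them (*Bhlhe41*, *Ciart*, *Cry1*, *Per1*, *Tef* and *Tspan4*), the D-box in 2 (*Per1* and *Per3*) and the receptor core in 2 (*Arntl* and *Nfil3*), against 8.09%, 3.99% and 2.97% of 27025 genes with a window. A match is a description of the letters and not evidence of binding. The 250 bases before the start are printed for *Ciart* (3.19-fold higher), *Per1* (3.41-fold) and *Per3* (3.35-fold), and 23 bases around the core for *Arntl* (0.142), with the element in capitals and the rest in lower case, 5′ to 3′ on the gene's strand.
Ciart, chr3:95882229-95882478, minus strand, 3 E-boxes: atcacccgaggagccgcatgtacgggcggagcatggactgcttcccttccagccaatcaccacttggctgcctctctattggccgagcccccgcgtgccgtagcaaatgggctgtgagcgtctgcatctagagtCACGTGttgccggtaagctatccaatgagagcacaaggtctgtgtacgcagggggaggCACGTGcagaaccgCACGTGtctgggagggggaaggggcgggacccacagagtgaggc
Per1, chr11:69098699-69098948, plus strand, 1 E-box and 1 D-box: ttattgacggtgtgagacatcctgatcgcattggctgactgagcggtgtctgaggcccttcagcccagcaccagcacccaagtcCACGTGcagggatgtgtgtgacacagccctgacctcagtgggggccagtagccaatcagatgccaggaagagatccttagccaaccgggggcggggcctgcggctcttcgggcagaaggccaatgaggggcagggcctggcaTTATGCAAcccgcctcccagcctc
Per3, chr4:151044666-151044915, minus strand, 2 D-boxes: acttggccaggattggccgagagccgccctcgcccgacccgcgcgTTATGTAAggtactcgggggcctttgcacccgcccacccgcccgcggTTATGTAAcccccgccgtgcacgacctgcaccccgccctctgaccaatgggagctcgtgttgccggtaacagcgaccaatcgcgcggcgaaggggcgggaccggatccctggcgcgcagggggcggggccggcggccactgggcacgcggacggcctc
Arntl, chr7:113207533-113207555, plus strand, 1 receptor core: gcagaaagTAGGTCAgggacgga

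**Figure D5:**
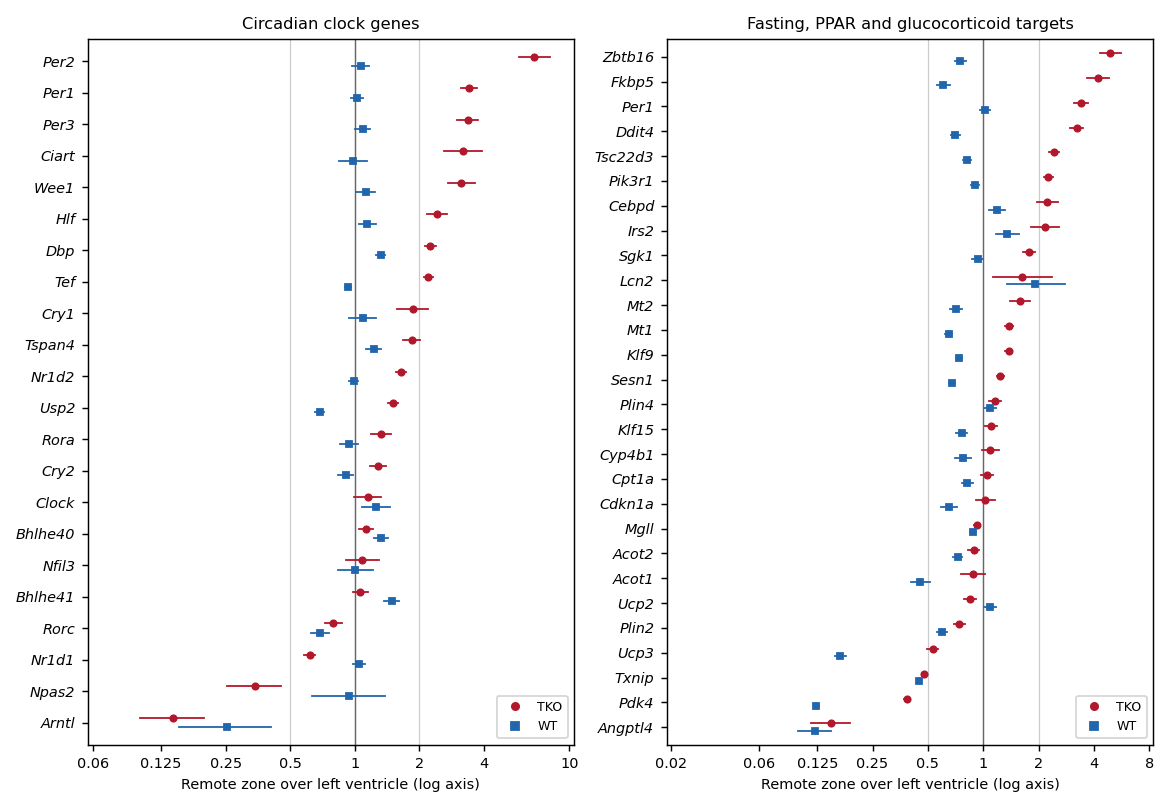
Ratio of remote zone over left ventricle (log x axis) for clock genes and for fasting, PPAR and glucocorticoid target genes with at least 50 counts over each pair, with TKO as red circles and WT as blue squares and bars for 95% counting intervals; grey lines mark 2-fold. From *Per2* (6.87) to *Tef* (2.203) the TKO clock points lie past 2-fold while the WT points lie near 1, and in the other panel *Angptl4* and *Pdk4* lie far below 1 in both genotypes.

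Immediate early genes, which respond within minutes to stretch, growth factors or handling, were also higher. Of 27 genes, 5 were at least 2-fold higher and 21 above 1, with a median of 1.33 (WT 1.13). Against the WT left ventricle the TKO remote zone had a median of 1.13, with 1 gene past 2-fold higher and 2 lower. For 16 of the 27 genes the TKO left ventricle was the lowest of the 8 libraries, beside 21.5% of all genes. *Nr4a1*, a nuclear receptor, had 117 and 696 counts in the TKO left ventricle and remote zone (5.12, 4.20 to 6.28), with 12.6 and 19.9 CPM in WT, and *Fos* had 54 and 139 (2.21, 1.61 to 3.09). *Egr1* was near equal at 13.98 and 15.4 CPM (0.957 to 1.27 for the ratio). *Fosb*, a partner of the Fos family, had 0 and 26. *Fos* was the gene of this list past 2-fold against both left ventricle libraries. Stress and protein folding genes had a median of 0.868 over 38, with 2 higher (*Ddit4* and *Mthfd1l*) and 1 lower. *Manf*, an endoplasmic reticulum stress protein, was the lower gene, with 70.6 and 31.6 CPM (0.447, 0.413 to 0.484), while *Atf4* had 64.7 and 74.0 CPM (1.15). In the heat shock list (20 genes, median 1.04) *Hsph1* had 238 and 84 counts (0.304, 0.234 to 0.391) and a WT ratio of 0.166, and *Hspa8* 822 and 1326 CPM (1.61). *Irs1*, the insulin receptor substrate, had 432 and 207 counts (0.412, 0.347 to 0.488), while the ubiquitin ligases of muscle atrophy *Trim63* (0.872) and *Fbxo32* (0.953) were near equal in a list of 25 with a median of 0.958, 1 higher (*Irs2*) and 1 lower.

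Leukocyte RNA was low and slightly higher in the TKO remote zone, without the recruited macrophage pattern of WT. Of 20 pan-leukocyte genes 18 were above 1, none past 2-fold, with a median of 1.26. *Ptprc* (CD45) had 170 and 293 counts in the TKO left ventricle and remote zone (1.48, 1.22 to 1.80), and the WT left ventricle had 10.3 CPM against 9.73 CPM in the TKO remote zone. The summed level of the list was 160.8 and 187.1 CPM in the TKO libraries and 205.1 and 261.2 CPM in the WT libraries. *Tyrobp* was at 0 in both TKO libraries. Against the WT left ventricle the median was 0.910. For 16 of the 20 pan-leukocyte genes the TKO left ventricle was the lowest of the 8 libraries, beside 21.5% of all genes. Of 36 recruited macrophage and monocyte genes, none was 2-fold higher and 1 was lower, with a median of 0.985, and in WT 11 were higher with a median of 1.61. *Lgals3* (galectin-3) had 152 and 172 counts in TKO (0.973, 0.778 to 1.22) and *Ccr2*, the receptor of recruited monocytes, 91 and 122 (1.15, 0.872 to 1.53), differences not detectable at this depth. The WT ratios were 3.45 and 2.98. *Nos2* was the lower gene, with 248 and 121 counts (0.420, 0.335 to 0.524).

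Resident macrophage genes were higher as a list, 19 of 21 above 1 with a median of 1.28 and 2 past 2-fold. *Cd163*, a hemoglobin scavenger receptor, had 11.2 and 24.8 CPM (2.21, 1.93 to 2.54) and *Lyve1*, which lymphatic endothelium also expresses, 13.01 and 26.7 CPM (2.06, 1.81 to 2.34). The WT left ventricle had 26.3 and 32.1 CPM of them, above the TKO remote zone. Lymphocyte genes had 7 of 20 past 2-fold on low counts, with a median of 1.31. Against the WT left ventricle the lymphocyte median was 0.773, and 2 genes were past 2-fold higher against both references. The TKO left ventricle was the lowest of the 8 libraries for 16 of the 20. *Trbc2* (a T cell receptor chain) had 8 and 50 counts (5.38, 2.53 to 13.1), *Jchain* (plasma cells) 42 and 154 (3.15, 2.23 to 4.55), and *Lck* 2 and 45 (19.4, 5.06 to 165). Their list sum was 33.3 CPM in the TKO left ventricle, 51.5 CPM in the TKO remote zone and 217.1 CPM in the WT left ventricle. *Trbc1* and *Ncr1* were at 0 in the TKO remote zone, and *Il7r*, *Nkg7*, *Iglc2* and *Foxp3* were at 0 in the TKO left ventricle.

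Antigen presentation and complement genes had mixed values. The MHC list had a median of 0.968 over 23 genes with 1 past the limit each way, and *H2-Aa* (class II) at 24.6 and 40.5 CPM (1.65, 1.499 to 1.82), its chaperone *Cd74* at 54.7 and 82.5 CPM (1.51), and *B2m* (class I) at 284 and 217 CPM (0.763). Interferon-stimulated genes had a median of 1.11 over 41, with 3 higher and 1 lower, *Ifit3* at 1.42 and *Oas2* at 2.16 (1.80 to 2.62). In the complement list (21 genes, median 1.18, 3 past 2-fold) *C3* had 91.3 and 147 CPM (1.61, 1.53 to 1.70) and *C4b* 11.47 and 33.6 CPM (2.93, 2.57 to 3.344), and 28.4 CPM of *C4b* were in the WT left ventricle. Of 41 chemokine and cytokine genes 6 were past 2-fold higher and none lower, with a median of 1.01. *Ccl8* had 10 and 62 counts (5.33, 2.71 to 11.7), with a WT ratio of 3.45, and the alarmin *Il33* 88 and 232 (2.27, 1.77 to 2.93), with a WT ratio of 2.04. *Ccl2* was not higher, at 97 and 77 counts (0.683, 0.4996 to 0.930). None of the higher genes of the interferon, complement and chemokine lists was also 2-fold higher against the WT left ventricle. The medians against that library were 1.16, 1.03 and 0.987. The TKO left ventricle was the lowest of the 8 libraries for 8 of 41, 16 of 21 and 15 of 41 genes of these lists, in that order.

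Other cell types that a piece of ventricle can hold were described by their lists. Endothelial genes had a median of 1.03 over 36, with *Pecam1* at 152 and 142 CPM (0.935, 0.896 to 0.977). *Cldn5*, a tight junction gene of vessels, had 32.8 and 14.1 CPM (0.430, 0.382 to 0.484), but 15.3 CPM in the WT left ventricle, and *Mmrn1*, of lymphatic vessels, 51 and 187 counts (3.15, 2.30 to 4.39). Smooth muscle and pericyte genes had a median of 1.13 over 18 and *Myh11* a ratio of 1.29. The summed epicardial and mesothelial list was 764.0 and 763.4 CPM, although *Upk3b*, of mesothelium, had 5 and 59 counts (10.2, 4.11 to 32.4) and *Msln* 14 and 0. Of the 17 genes tested in that list, 4 were past 2-fold higher and 1 lower, beside 3.11% and 1.53% of all genes. Their median was 1.205 (0.887 against the WT left ventricle), and none was past 2-fold the same way against both left ventricle libraries. Adipocyte genes summed to 126.6 and 131.0 CPM in the TKO libraries and 340.0 CPM in the WT left ventricle. Of 13 tested, 4 were past 2-fold higher on low counts, among them *Cidec* with 6 and 49 (7.03, 3.01 to 20.1), and *Plin1* and *Ucp1* were at 0 in both. Red blood cell genes had a median of 0.917 over 8 (*Hbb-bs* 0.939) and Schwann and neuronal genes 0.926 over 13. The Schwann and neuronal sum was 316.3 CPM in the TKO left ventricle and 205.3 CPM in the TKO remote zone, most of it *Prnp*, the prion protein gene, with 260.6 and 144.8 CPM (0.556, 0.535 to 0.577). The WT left ventricle had a sum of 207.2 CPM. The gene of that list past 2-fold was the receptor gene *Gfra3*, with 94 and 42 counts (0.384, 0.261 to 0.559). The part of these cells in the other results was not tested.

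The list of the disrupted gene and its neighbours in the study had a median of 0.852 over 6 genes, with 1 past 2-fold higher and none lower. The other remaining lists had medians between 0.905 and 1.099. Cell cycle genes had a median of 0.988 over 44 with 2 past 2-fold higher, *Mki67* at 88 and 218 counts (2.13, 1.66 to 2.76) and *Mcm5* at 12 and 37, and in WT the median was 1.36 with 8 higher. TGF-beta family genes had a median of 1.099 over 31 with none past the limit (*Tgfb2* 0.846), p53 targets 1.098 over 29 with none (*Cdkn1a* 1.03), and hypoxia response genes 0.977 over 28 with 2 higher (*Hif1a* 0.783). Antioxidant genes had a median of 0.913 over 46 with 1 lower, and *Nqo1* at 1.23. Lipid droplet and triglyceride genes had a median of 0.905 over 23, with *Plin5* at 0.790. Of these, *Cidec* and *Gpam* (53 and 131 counts, 2.13) were 2-fold higher and none lower. Mitochondrial fusion, fission and mitophagy genes had a median of 0.928 over 41 with 1 higher, and *Mfn2* at 0.924 and *Bnip3* at 1.23.

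Genes outside the lists were past 2-fold against both left ventricle libraries as well. The following were chosen after their values were seen, as named genes with over 100 counts. *Cish*, a feedback inhibitor of cytokine signaling, had 1555 counts in the TKO left ventricle and 4164 in the TKO remote zone (2.30), 2.64-fold above the WT left ventricle, and a WT ratio of 2.37. *Angptl7*, a secreted angiopoietin-like protein, had 130 and 682 counts (4.51) and *Hmcn2*, a matrix protein, 213 and 781 (3.15), with WT ratios of 4.44 and 2.88. *Scd4*, a cardiac stearoyl-CoA desaturase, had 106 and 600 counts (4.87) and a WT ratio of 5.42. On the lower side *Pde5a*, the phosphodiesterase of cyclic GMP, had 143 and 69 counts (0.415) and a WT ratio of 0.426. For each of these 5 genes the TKO and WT remote zones lay on the same side of both left ventricles.

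The most extreme ratios by their counting bound belonged mostly to genes whose estimated counts were at or near 0 in 1 library, and they are given as uncertain. Of the 12 highest, 9 had 0 counts in the TKO left ventricle. *Itpr1* (an inositol trisphosphate receptor, ENSMUSG00000030102, chromosome 6, 108213096 to 108551109) had 0 there and 354 in the TKO remote zone, at least 101.5-fold higher, but 354 also in the WT left ventricle and in the WT remote zone. *Sap130* had 0 and 227 (at least 65.1-fold) and 177 in the WT left ventricle. *Fgfbp3* had 0 in both left ventricles against 117 and 92 in the TKO and WT remote zones (at least 33.55-fold in TKO), and *Aqp4*, the water channel, had 0 and 128 (at least 36.7-fold), with 30 in the WT left ventricle. *Birc2*, *Gm14117*, *Rmdn2*, *Fdft1* and *Zfp708* were the others at 0, *Cmah* had 2 and 178 counts, *Rprd2* 1 and 95, and *Bmp10* completed the 12.

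Among the 12 lowest, 4 were annotated as processed pseudogenes (*Rps7-ps3*, *Rps3a2*, *Gm7666* and *Gm13841*). *Rps7-ps3* had 2011 counts there and 0 in the TKO remote zone, *Rps3a2* 2592 and 10, and an unnamed gene (ENSMUSG00000083840) 15947 and 97. The parent *Rps7* was higher, with 754 and 6172 counts (7.04), so the sum of *Rps7* and *Rps7-ps3* was 2765 and 6172 (1.92, 1.84 to 2.01). For *Rps3a1*, *Rps3a2* and *Rps3a3* together the sum was 10218 and 12054 (1.01, 0.988 to 1.04). The TKO left ventricle held 8 genes with at least 100 counts and 10 times every other library, against 0 in the TKO remote zone. *Rnaset2b* had 1231 and 31 counts, and its sum with *Rnaset2a* was 4621 and 3727 (0.694). *Eed*, a subunit of the polycomb complex, had 290 counts in the TKO left ventricle and 4 in the TKO remote zone (0.0119, 0.00321 to 0.0307), with 274 and 344 in WT, and *Ndst2*, *Nrbp2*, *Ptpre* and *Gm20388* were at 0 in the TKO remote zone. Sharing of reads between copies or transcripts of these genes was not tested.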

How the data were processed

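RNA-seq of 8 mouse heart libraries was deposited as 1 table. Per the study's methods and the submitters' processing notes, the authors trimmed reads with Trim Galore 0.6.5, quantified transcripts with kallisto 0.46 on mm10 (GRCm38) and used edgeR 3.34.1. The deposited values are estimated counts per gene, given as whole numbers and not normalized. Here the counts were scaled by TMM (edgeR 4.0.16, R 4.3.3) over the 8 libraries, and 12999 genes passed a minimum mean CPM of 1. Ratios have exact (Clopper-Pearson) 95% intervals, and genes past 2-fold were counted after a prior count of 2, a rule of size and not a test. With 1 library a group there is no replicate check. The ratio code was checked on simulated counts. Members, the 50 gene lists and the rules were chosen with earlier results of these data known. Genes were named as the 12 highest and 12 lowest by their bound nearest 1, each list's lead, highest and lowest members (at least 50 counts), the 6 largest gains and losses in CPM, and *Tigar*. Some genes these rules cover are not reported here, and other genes named were chosen after their values were seen. Symbols missing for 153 genes were looked up in a name table, and the ID was kept where none was found. Coordinates came from GENCODE M21 (16879 genes found). DESeq2 1.42.0 size factors and other scalings, filters, prior counts and references were alternatives.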

Additional observations from a re-analysis of the deposited data

Results flagged for a closer look

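The TKO and WT pairs went opposite ways for some genes and lists, each with 1 library per genotype and zone, so the difference was not tested. By the 2-fold limit 36 genes were higher in the TKO remote zone and lower in the WT remote zone. They were 8.91% of the TKO higher genes, beside 2.09% of all genes lower in WT. The reverse held for 28, which is 14.1% of the TKO lower genes, beside 3.42% of all genes higher in WT. Immunoglobulin segments on low TKO counts were in the first set, such as *Igkv1-117* with 3 and 19. *Adipoq* had 6 and 17 TKO counts, and its interval spanned 1 (0.917 to 7.55). Beside the adipocyte genes *Adipoq*, *Cfd* and *Car3*, the first set held *Gpr22*, a receptor of heart muscle, with 126 and 729 counts in the TKO left ventricle and remote zone (4.98, 4.11 to 6.06) and 558 and 292 in WT (0.471, 0.408 to 0.544). The other set held *Sox4*, a transcription factor, with 1148 and 491 counts in TKO (0.368, 0.330 to 0.409) and 374 and 884 in WT (2.13, 1.88 to 2.41), and *Rab4a*, with 375 and 142 in TKO and 94 and 256 in WT.

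The fasting, PPAR and glucocorticoid targets had a TKO median of 1.24 and a WT median of 0.737. The adipocyte genes had a TKO median of 1.17 and a WT median of 0.647, and the T and B lymphocyte genes 1.31 and 0.848. For these 3 lists the TKO left ventricle was below the WT left ventricle in summed level, with 2400 and 4372 CPM for the fasting list, 126.6 and 340.0 CPM for the adipocyte list, and 33.3 and 217.1 CPM for the lymphocyte list, while their TKO and WT remote zones were 2203 and 2139, 131.0 and 137.8, and 51.5 and 88.9 CPM.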

How the results depend on the processing

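Scaling by total counts, TMM from the 2 libraries, DESeq2 size factors or without mitochondrial DNA-encoded genes gave 402 to 436 genes higher and 186 to 200 lower, against 404 and 199. Without a filter there were 1096 higher, 707 lower and 407 past the limit the same way in WT (119 as reported); at a mean CPM of at least 10 there were 105, 32 and 28, at a 1.5-fold limit 1074, 575 and 408, and with the limit on the bound nearest 1 there were 155, 89 and 45. A prior count of 10 gave 78 shared with WT. With the WT left ventricle as reference 227 were higher, with the mean of both left ventricles 149. Added after seeing the data, at least 20 counts in both libraries gave 219 higher, and both left ventricles as references gave 65 higher and 64 lower.

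Of 50 list medians, 34 lay at least 0.1 (log2) from 1 as reported, and none of these crossed 1 under any scaling, filter or prior count. Of those nearer to 1, 5 crossed it with total counts and 2 each with TMM from the 2 libraries, no filter and a mean CPM of at least 10. Against the WT left ventricle 14 crossed, 9 of them from at least that far: smooth muscle and pericyte 0.9495, epicardial and mesothelial 0.887, adipocyte 0.506, red blood cell 1.15, Schwann and neuronal 1.14, pan-leukocyte 0.910, T and B lymphocyte 0.773, fasting, PPAR and glucocorticoid targets 0.774, and p53 targets 0.988. Against the mean of both left ventricles 6 crossed, of which adipocyte (0.622), red blood cell (1.01), T and B lymphocyte (0.851) and fasting, PPAR and glucocorticoid lists (0.942) did so from at least that far. The cause was not tested. No paired analysis was possible because each group has 1 library. Counting error limits genes under about 50 counts, and the spread between mice cannot be estimated.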
